A study of Homo sapiens with 9 samples.

Results

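The genes described here are 8 components of the death receptor pathway, namely the receptors FAS, TNFRSF10A, TNFRSF10B, TNFRSF10D, EDA2R and TNFRSF1A, the adaptor FADD and the initiator caspase CASP8. They were chosen by gene symbol for their place in the pathway, with earlier results of these data known, and some are p53 targets. All 8 were found among the 78986 genes of the deposited table. RNA-seq was performed on stable HEK293T lines that overexpressed WT, G245S or R273H p53, with 3 biological replicates of each, 9 libraries in all. G245S and R273H are hotspot substitutions in the DNA-binding domain of p53. Each line was made by lentiviral transduction of HEK293T cells, a human embryonic kidney line that the sample labels give as HEK 293 and as epithelial, and all lines were selected and grown in puromycin. HEK293T cells carry the SV40 large T antigen, which binds p53, so WT p53 here acted in cells whose own p53 pathway is restrained. Cells without introduced p53 were not analysed here, so each value compares a mutant line with the WT p53 line, and nothing in the sources used here says whether a line was 1 clone or a pool. The sources also do not say whether replicates came from separate transductions. Differences of genotype and of line therefore cannot be told apart, and the confidence intervals of the fits below cover spread between replicates only.

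Death receptors are cell surface receptors of the tumor necrosis factor (TNF) family that carry a death domain inside the cell. Among these genes they are FAS, TNFRSF10A, TNFRSF10B and TNFRSF1A, and EDA2R and the decoy TNFRSF10D are grouped with them here. When a ligand clusters FAS or a TRAIL receptor, the death domain recruits FADD, which recruits procaspase-8, and active caspase-8 cleaves the effector caspases and BID. FAS, EDA2R and the TRAIL receptors TNFRSF10A, TNFRSF10B and TNFRSF10D are known transcriptional targets of p53, whereas TNFRSF1A, FADD and CASP8 are expressed in most cells and are better known for their place in the signal than as p53 targets.

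The sequences around the start of the genes were examined because p53 binds a known consensus, a pair of decamers that each hold 3 purines, C, 2 positions of A or T, G and 3 pyrimidines. The consensus reads alike on both strands. Only decamers directly next to each other were searched as a pair, so pairs with bases between them were not looked for. RefSeq windows (GRCh38.p14) of 250 bases before to 50 bases after a transcript start were found for 5 of the 8 genes, 10 windows in all. A single exact decamer was present in 6.64% of 34943 windows of all genes, and in 2 of these 10, 1 each of FAS and CASP8. The FAS window, chr10:88991181-88991480 on the plus strand, is shown because it was the only one of the 10 to hold 2 adjoining decamers with both 4-base cores intact. The pair is in capitals and departs from the consensus at 2 of its 20 positions. Among all windows, 0.157% held a pair with both cores and at most 2 mismatches. The pair lies at chr10:88991309-88991328, in intron 1 of the canonical FAS transcript, 511 bases after its first base. The EDA2R window at chrX:66639220-66639519 on the minus strand is shown beside it, since EDA2R had the lowest level relative to WT p53 among these genes, and it held no exact decamer. A match of letters is a description of these windows and does not show binding.
FAS: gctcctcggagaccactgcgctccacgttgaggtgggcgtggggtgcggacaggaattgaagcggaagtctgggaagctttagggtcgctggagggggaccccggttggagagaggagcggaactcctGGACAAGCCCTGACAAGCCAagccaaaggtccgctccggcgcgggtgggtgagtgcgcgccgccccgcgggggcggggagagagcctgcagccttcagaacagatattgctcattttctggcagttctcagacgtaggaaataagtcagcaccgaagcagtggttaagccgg
EDA2R: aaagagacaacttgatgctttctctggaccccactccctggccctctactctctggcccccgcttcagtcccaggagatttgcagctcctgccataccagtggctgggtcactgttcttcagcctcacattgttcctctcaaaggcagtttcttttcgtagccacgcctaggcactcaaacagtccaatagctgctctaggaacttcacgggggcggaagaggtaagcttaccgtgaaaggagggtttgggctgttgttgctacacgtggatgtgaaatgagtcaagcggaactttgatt

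Library totals ranged from 7325514 to 9667306 counts in 8 libraries, and WT replicate 3 held 1486315. That library did not enter the fits, its depth being under 0.5 times the median of the others, and its value is given separately. Levels are CPM, that is, counts divided by the library's total after TMM scaling. KRT18 and KRT8, keratins of simple epithelia, lay between 58.6 and 68.6 CPM and between 9.62 and 12.1 CPM in the 8 libraries, whereas EPCAM and CDH1, which are epithelial adhesion genes, lay between 0.736 and 3.40 CPM and between 0.681 and 1.41 CPM. The summed level of the 5 epithelial markers was 73.2 to 80.0 CPM in WT, 73.5 to 77.1 CPM in G245S and 82.9 to 84.3 CPM in R273H. Among 5 blood cell markers CD3E was at 0 in every library, and their sum did not exceed 2.29 CPM in any library fitted. WT replicate 3 differed from the 8 libraries in keratins, with KRT18 at 159.8 CPM, KRT8 at 54.4 CPM and KRT19 at 33.5 CPM. KRT19 did not exceed 1.36 CPM in the 8 libraries. LYZ, a blood cell marker, was at 6.98 CPM in WT replicate 3 and at most 0.257 CPM in the 8 libraries. WT replicate 3 thus differed in more than depth, and the reason was not tested. The summed level of 5 fibroblast markers was 40.3 to 67.3 CPM in WT, 26.7 to 61.9 CPM in G245S and 51.2 to 115.8 CPM in R273H. Nearly all of this sum came from the collagen genes COL1A1, COL1A2 and COL3A1. PDGFRB was at most 1.09 CPM and DCN at most 0.272 CPM in the 8 libraries. The part of this sum in the values below was not tested.

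In both mutant lines the 4 tested receptors known as p53 targets were at lower mean levels than in the WT p53 line, while TNFRSF1A, FADD and CASP8 had log2 fold changes between −0.17 and 0.06. EDA2R fell in G245S and FAS fell in R273H, and these were the only changes among the 8 genes to pass an adjusted p of 0.05 from the quasi-likelihood test of edgeR. Of 7 genes tested, 1 was called lower in G245S, where 0.107% of all 15893 genes tested were, and 0 were called higher, against 0.0189% of all genes. Likewise, 1 of 7 was called lower in R273H, where 0.112% of all 16022 genes tested were, and 0 higher, against 0.025%. The gene called in G245S, EDA2R, passed the filter on low counts only through the WT libraries. These shares are therefore a description and no test of the group. Both comparisons use the same WT libraries, so they are not independent of each other. In such bulk samples, fewer cells that express a gene and less of its RNA per cell cannot be told apart.

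**Figure D1:**
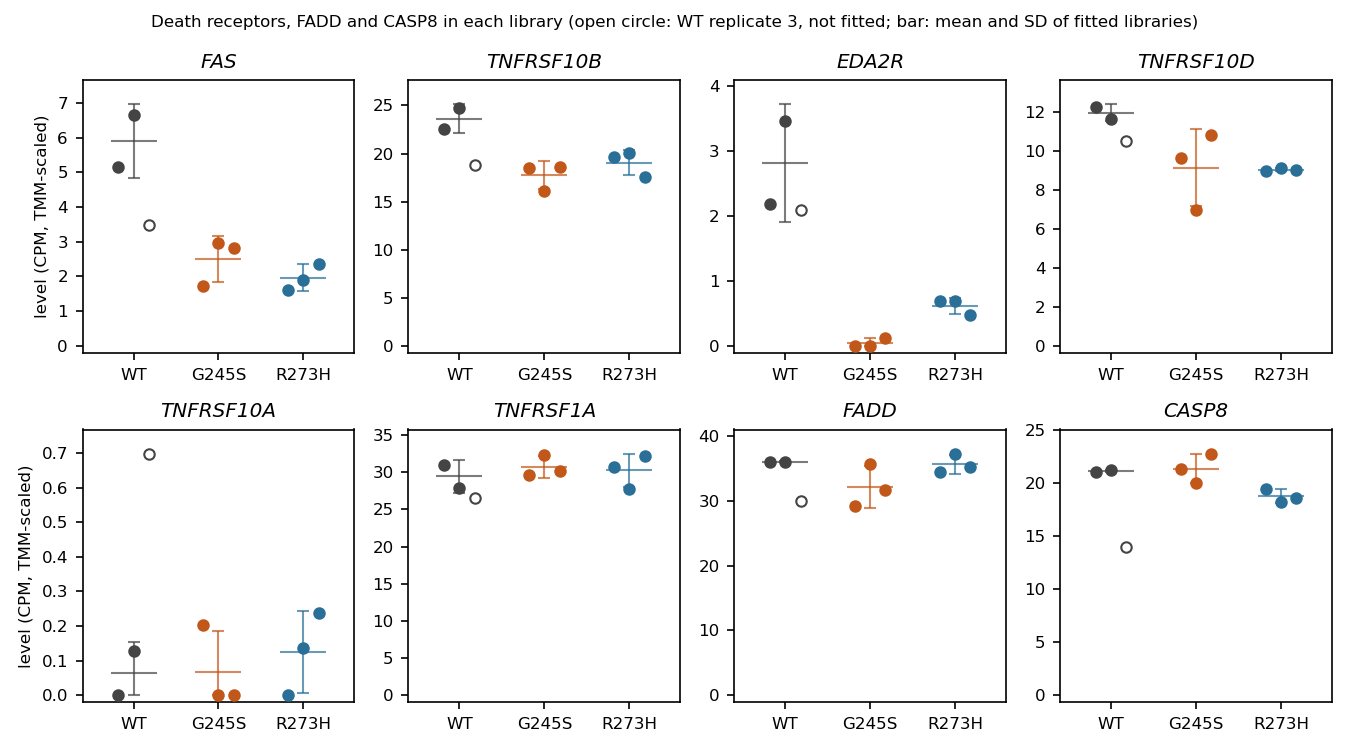
Level of each gene in each library (vertical axis, CPM after TMM scaling) for cells expressing WT, G245S or R273H p53. Points are libraries, bars the mean ± SD of the fitted libraries (n = 2 for WT and 3 for each mutant), and the open circle WT replicate 3. FAS and EDA2R lie below every WT library in both mutants, while TNFRSF1A overlaps.

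EDA2R (ENSG00000131080, GRCh38 chromosome X, 66595637 to 66639298, minus strand) encodes a receptor for the A2 form of ectodysplasin. It held 19 and 27 counts in WT replicates 1 and 2, which gave 2.18 and 3.45 CPM. In G245S the 3 libraries held 0, 0 and 1 counts, and in R273H they held 6, 5 and 4. Every G245S library was therefore below every R273H library, and every R273H library below both WT libraries. The mean was 2.82 ± 0.904 CPM in WT (SD, n = 2), 0.0409 ± 0.0708 CPM in G245S (SD, n = 3) and 0.614 ± 0.122 CPM in R273H (SD, n = 3). A count of 0 allowed up to 3 counts, or 0.305 and 0.385 CPM in the 2 G245S libraries with none.

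Summed over libraries and set against depth, the rate of EDA2R in WT was 71.7 times that in G245S (95% exact interval 12.2 to 2893, from 46 counts against 1). It was 4.54 times that in R273H (interval 2.49 to 8.76, from 46 counts against 15). These intervals cover counting error only. In G245S the fit gave a log2 fold change of −5.71 (standard error 0.768, adjusted p = 0.00317 with edgeR), a size that depends on how the fit treats zero counts. In R273H the log2 fold change was −2.16 (95% confidence interval −3.02 to −1.29), and it missed the threshold (adjusted p = 0.0567 with edgeR). EDA2R passed the filter on low counts only through the WT libraries, so its place among the genes tested already reflects its higher level there. The call in G245S held with DESeq2 (adjusted p = 0.00609) but was lost without WT replicate 2 (edgeR's adjusted p = 0.0886), the WT library with the higher level, and when WT replicate 3 took its place (edgeR's adjusted p = 0.113). WT replicate 3 held 3 counts, or 2.09 CPM.

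FAS (ENSG00000026103, GRCh38 chromosome 10, 88953813 to 89029605, plus strand) encodes the receptor for FAS ligand, the prototype of the family. Its level was 5.15 and 6.65 CPM in the WT libraries. In G245S it was 1.73, 2.95 and 2.82 CPM, and in R273H 1.61, 1.91 and 2.37 CPM. Both mutant lines lay below both WT libraries and overlapped each other. In the order WT, G245S and R273H, the means were 5.90 ± 1.06 CPM (SD, n = 2), 2.50 ± 0.673 CPM (SD, n = 3) and 1.96 ± 0.384 CPM (SD, n = 3), from 97 counts in WT, 63 in G245S and 48 in R273H after rounding. Some deposited counts of FAS and CASP8 held a fraction, which comes from reads that map to more than 1 place.

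The log2 fold change of FAS was −1.58 in R273H (standard error 0.256, adjusted p = 0.0159 with edgeR), to 0.335 of the WT level. In G245S it was −1.25 (95% confidence interval −1.82 to −0.68), which missed the threshold after adjustment (adjusted p = 0.147 with edgeR). Between the mutants the log2 fold change, R273H over G245S, was −0.33 (95% confidence interval −0.95 to 0.29, edgeR's adjusted p = 0.994), so the different calls do not show that the mutants differed. WT replicate 3 held 5 counts of FAS, or 3.49 CPM, above all 6 mutant libraries. The call in R273H was lost when this library was added (edgeR's adjusted p = 0.0739) and with DESeq2 (adjusted p = 0.0634). It was also lost without WT replicate 2 (edgeR's adjusted p = 0.207), R273H replicate 1 (0.0784) or R273H replicate 2 (0.0730).

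**Figure D2:**
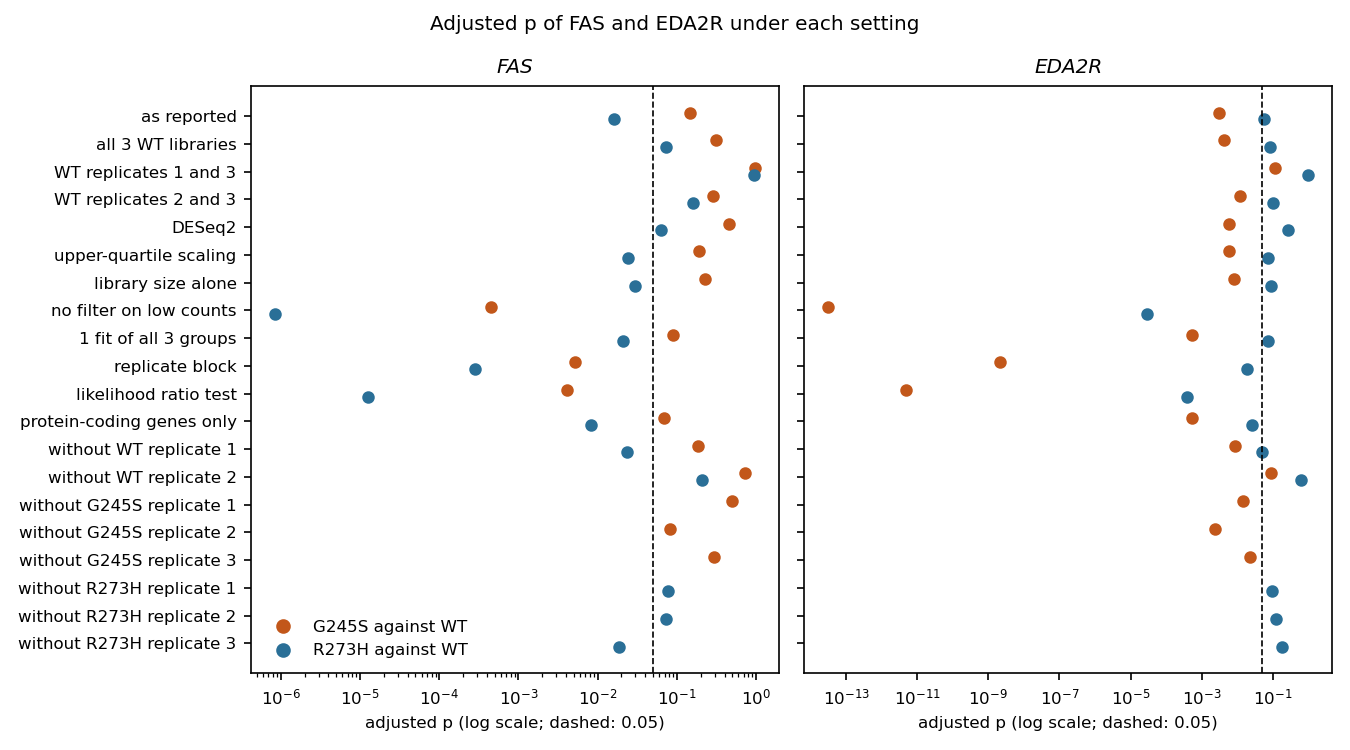
Adjusted p (horizontal axis, log scale, with a dashed line at 0.05) of FAS and EDA2R in each mutant against WT p53, under the reported fit and each alternative (vertical axis). EDA2R in G245S lies beyond 0.05 in 2 of 16 alternatives that tested it, and FAS in R273H in 7 of 16. EDA2R in R273H lies beyond it in 12 of 16 and FAS in G245S in 13 of 16.

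FAS overlaps ACTA2, a smooth muscle actin gene on the opposite strand, and the decamer pair shown above also lies within the annotated span of ACTA2. The pair is outside the canonical ACTA2 transcript, upstream of that transcript's start. The authors counted with regard to strand, so reads of the 2 genes are counted apart. ACTA2 was at 21.99 and 24.6 CPM in WT, 3.76 to 7.70 CPM in G245S and 6.43 to 10.3 CPM in R273H. Relative to WT, the log2 fold change of ACTA2 came to −2.11 in G245S (adjusted p = 0.000268 with edgeR) and to −1.56 in R273H (adjusted p = 0.000428).

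TNFRSF10B (ENSG00000120889, GRCh38 chromosome 8, 23020133 to 23069031, minus strand) encodes DR5, a TRAIL receptor with a working death domain. It was at 22.6 and 24.7 CPM in WT, at 18.5, 16.1 and 18.6 CPM in G245S and at 19.6, 20.01 and 17.5 CPM in R273H. All 6 mutant libraries were below both WT libraries. The log2 fold change was −0.40 in G245S (95% confidence interval −0.66 to −0.14, edgeR's adjusted p = 0.526) and −0.31 in R273H (95% confidence interval −0.56 to −0.06, edgeR's adjusted p = 0.727). Neither passed the threshold. WT replicate 3, at 18.8 CPM, was above all G245S libraries and inside the range of R273H.

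TNFRSF10D (ENSG00000173530, GRCh38 chromosome 8, 23135588 to 23164027, minus strand) encodes DcR2, a decoy that binds TRAIL but has a truncated death domain. The WT libraries were at 12.3 and 11.6 CPM, the G245S libraries at 9.65, 6.93 and 10.8 CPM and the R273H libraries within 8.95 to 9.12 CPM. The mutant libraries were again below both WT libraries, with the widest scatter in G245S. The log2 fold change was −0.38 in G245S (95% confidence interval −0.76 to 0.00, edgeR's adjusted p = 0.751) and −0.40 in R273H (95% confidence interval −0.70 to −0.10, edgeR's adjusted p = 0.684). The left-out WT library had 10.5 CPM, inside the range of G245S and above all R273H libraries.

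TNFRSF10A (ENSG00000104689, GRCh38 chromosome 8, 23190452 to 23225102, minus strand) encodes DR4, the other TRAIL receptor that signals death. It held 0, 1 and 1 counts in the WT libraries, 2, 0 and 0 in G245S and 0, 1 and 2 in R273H. Each value was under the floor of 3 counts, so no level or difference was detectable at this depth. The gene did not pass the filter on low counts and was not tested. Of the pair of TRAIL receptors that signal, DR5 was thus the one with a measurable transcript in these lines.

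**Figure D3:**
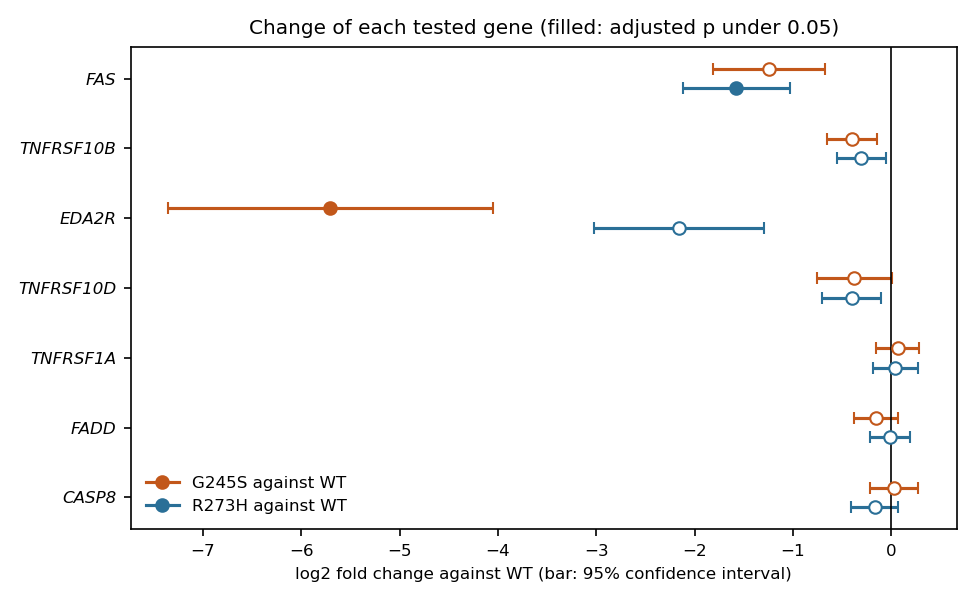
Log2 fold change against WT p53 (horizontal axis) of the 7 genes tested, in G245S and in R273H. Points are edgeR estimates, bars 95% confidence intervals, and filled points an adjusted p under 0.05, which only EDA2R in G245S (−5.71) and FAS in R273H (−1.58) reached.

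TNFRSF1A (ENSG00000067182, GRCh38 chromosome 12, 6328757 to 6342114, minus strand) encodes the main TNF receptor, which signals through TRADD. Its level was 31.0 and 27.9 CPM in WT, 29.7, 32.4 and 30.2 CPM in G245S and 30.8, 27.8 and 32.2 CPM in R273H. The 3 groups overlapped, and WT replicate 3, at 26.5 CPM, was below every other library. The log2 fold change was 0.06 in G245S (95% confidence interval −0.16 to 0.29) and 0.04 in R273H (95% confidence interval −0.19 to 0.27).

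FADD (ENSG00000168040, GRCh38 chromosome 11, 70203296 to 70207390, plus strand) is the adaptor between receptor and caspase. It was at 36.0 and 36.1 CPM in WT, 29.2, 35.7 and 31.6 CPM in G245S and 34.4, 37.3 and 35.2 CPM in R273H. The G245S libraries lay below both WT libraries, which were close to each other, and R273H spanned them. WT replicate 3 was at 30.01 CPM, inside the range of G245S and below every R273H library. The log2 fold change was −0.16 in G245S (95% confidence interval −0.39 to 0.07, edgeR's adjusted p = 0.820) and −0.02 in R273H (95% confidence interval −0.22 to 0.19). The sign in R273H turned with the choice of WT libraries and with scaling by library size alone.

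CASP8 (ENSG00000064012, GRCh38 chromosome 2, 201233443 to 201361836, plus strand) encodes the caspase that FADD recruits. Its level was 21.1 and 21.2 CPM in WT, 21.3, 20.03 and 22.8 CPM in G245S and 19.5, 18.2 and 18.6 CPM in R273H. The R273H libraries were below all those of WT and G245S, while WT and G245S overlapped. The log2 fold change was 0.02 in G245S (95% confidence interval −0.22 to 0.27) and −0.17 in R273H (95% confidence interval −0.41 to 0.07, edgeR's adjusted p = 0.942). The left-out WT library was lower than every other, at 13.96 CPM from 20.5 counts.

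Counted without adjustment, 3 of the 7 tested genes were lower at p under 0.05 in G245S (FAS, TNFRSF10B and EDA2R), beside 3.3% of all genes tested. In R273H 4 were (these and TNFRSF10D), beside 3.33%. All mutant libraries were below both fitted WT libraries for 5 of 7 genes in G245S, the 4 tested receptors known as p53 targets and FADD, against 10.8% of all genes. In R273H this also held for 5 of 7, those 4 receptors and CASP8, against 10.5%. With WT replicate 3 beside them, FADD and TNFRSF10D in G245S and CASP8 and TNFRSF10B in R273H overlapped WT. The median log2 fold change over the 7 genes was −0.38 in G245S and −0.31 in R273H, and over all genes tested it was 0.00 in both. Since EDA2R entered through its WT level, these counts describe the genes and are no test of the group.

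Directly between the mutants, 0 genes passed the threshold, and EDA2R was not tested in the reported fit. With edgeR, 0 of 6 genes passed in R273H against G245S, as did 0 of all 15614 genes tested (0%), and DESeq2 also called 0 of 6. At an unadjusted p under 0.05 the count was 0 of 6, beside 4.75% of all genes. CASP8 was the 1 gene of 6 whose groups did not overlap, lower in R273H, where 9.01% of all genes did not overlap (log2 fold change −0.19, 95% confidence interval −0.41 to 0.02). The intervals of the others were −0.14 to 0.33 for TNFRSF10B, −0.37 to 0.31 for TNFRSF10D, −0.22 to 0.17 for TNFRSF1A and −0.05 to 0.34 for FADD. EDA2R was removed by the filter in this comparison, with 15 counts in R273H against 1 in G245S, a rate ratio of 15.8 (95% exact interval 2.43 to 665, counting error only). Without the filter, its log2 fold change was 3.53 (adjusted p = 0.0822 with edgeR), short of the threshold, and in 1 fit of all 3 groups it was 3.54 (adjusted p = 0.996 with edgeR).

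The order of the levels depended on the length used, so it was computed with both. Per kilobase of all annotated exons, the mean over the 8 libraries was 20.2 CPM for FADD, 7.19 for TNFRSF1A, 3.93 for TNFRSF10B, 2.81 for CASP8, 2.77 for TNFRSF10D, 0.263 for EDA2R, 0.107 for FAS and 0.0301 for TNFRSF10A. FADD and TNFRSF1A stood clear of the genes below them in every library. The range of TNFRSF10D (1.96 to 3.47) overlapped those of CASP8 (2.52 to 3.15) and TNFRSF10B (3.20 to 4.93). Those of EDA2R, FAS and TNFRSF10A also overlapped. The groups differed in this order. EDA2R was above FAS in WT (0.779 against 0.201) and in R273H (0.170 against 0.0669) but below it in G245S (0.0113 against 0.0853). In G245S EDA2R was also below TNFRSF10A (0.0231). TNFRSF10D was above CASP8 in WT (3.381 against 2.924) but below it in G245S (2.581 against 2.955) and R273H (2.553 against 2.595). With the canonical transcript, whose length for FAS is 3696 bases in place of 29313, CASP8 (7.65) came above TNFRSF10B (4.93) and FAS (0.852) above EDA2R (0.275), the latter in each of the 3 groups.

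The other genes of the pathway were not called in either mutant. Of 41 such genes, 27 passed the filter, and edgeR called 0 of 27 in G245S, in R273H and between the mutants, as did DESeq2. Of all genes tested, edgeR called 20 of 15893 in G245S, 22 of 16022 in R273H and 0 of 15614 between the mutants. At such shares, counts of 0 here and in the lists below do not set these genes apart. At an unadjusted p under 0.05, 1 was higher in G245S, 1 was higher in R273H and 0 were lower in either. Of all genes tested, 1058 of 15893 in G245S and 979 of 16022 in R273H passed this in either direction. The lower ones were 3.3% and 3.33% of all genes. The median log2 fold change of the 27 was 0.02 in G245S and 0.01 in R273H.

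Apart from EDA, the genes listed as death ligands held few or no counts. Of 6, TNF was at 0 counts in all 9 libraries, FASLG held 1 count in 1 library, and EDA, which encodes the ectodysplasins, was the only one tested, at 3.25 ± 1.19 CPM in WT (SD, n = 2), 3.67 ± 0.665 CPM in G245S (SD, n = 3) and 2.94 ± 0.345 CPM in R273H (SD, n = 3). Among 8 other death-domain and decoy receptors, 3 were tested and EDAR, the receptor for the A1 form of ectodysplasin, was at 0 in all libraries. TNFRSF21, or DR6, had the highest level of these, at 13.3 ± 1.19 CPM in WT (SD, n = 2), 13.2 ± 1.34 CPM in G245S (SD, n = 3) and 13.8 ± 1.01 CPM in R273H (SD, n = 3).

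All 7 adaptors and kinases at the receptor were tested, and 0 passed the threshold. DAXX, a FAS-binding protein, was the most abundant, at 58.5 ± 0.556 CPM in WT (SD, n = 2), 60.2 ± 2.85 CPM in G245S (SD, n = 3) and 63.4 ± 3.36 CPM in R273H (SD, n = 3). TRADD, the adaptor of TNFRSF1A, was the 1 gene with an unadjusted p under 0.05 in R273H, with a log2 fold change of 0.34 (edgeR's adjusted p = 0.769). The 5 genes downstream, 4 caspases and BID, lay between −0.21 and 0.02 on the log2 scale in G245S and between −0.06 and 0.13 in R273H. BID, which links caspase-8 to mitochondria, was the most abundant of them, at 66.0 ± 5.78 CPM in WT (SD, n = 2).

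Of 12 inhibitors of the pathway 11 were tested and 0 passed. XIAP, which blocks effector caspases, was the most abundant, with log2 fold changes of −0.08 in G245S and −0.17 in R273H (edgeR's adjusted p = 0.917 and 0.892). RBCK1, a subunit of the linear ubiquitin ligase at the TNF receptor, was the 1 gene with an unadjusted p under 0.05 in G245S, with a log2 fold change of 0.29 (edgeR's adjusted p = 0.663). The necroptosis genes RIPK3, MLKL and ZBP1 were not tested, and the most abundant of them, MLKL, held at most 5 counts in a library.

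**Figure D4:**
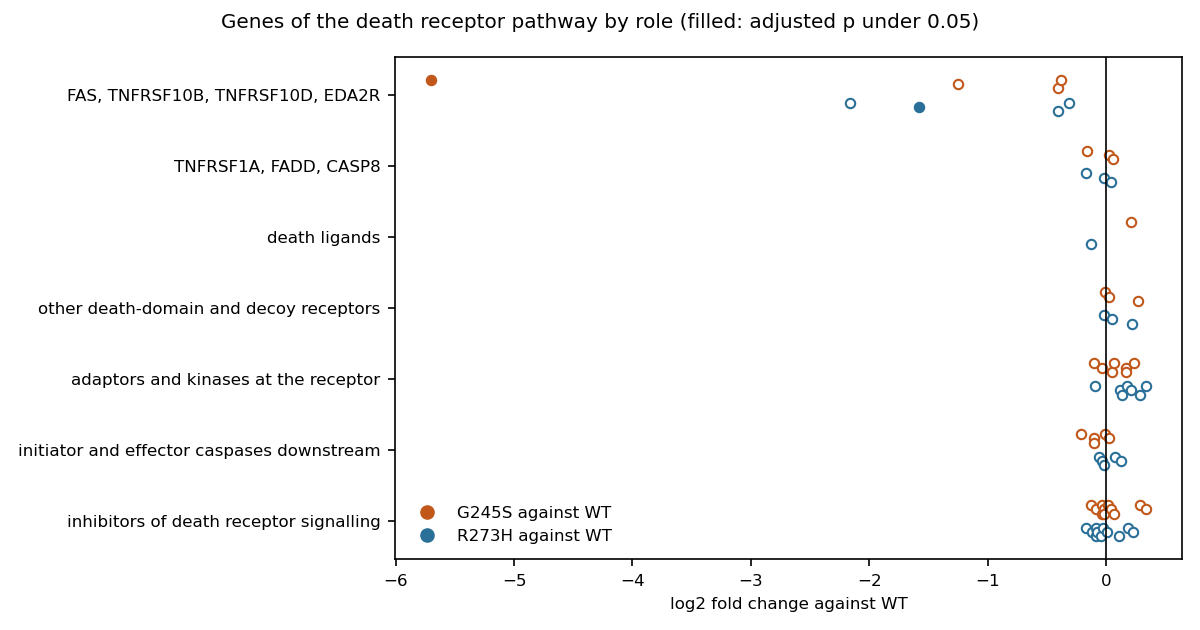
Log2 fold change against WT p53 (horizontal axis) of each tested gene of the pathway, grouped by role, in G245S and in R273H. Each point is a gene, filled where the adjusted p was under 0.05. The genes outside the top row lie between −0.21 and 0.34, and FAS and EDA2R lie well below them.

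For the 5 genes with a mean of at least 5 CPM, the genes with the most similar levels across the 8 libraries were listed as a description. Pearson's r of log2 CPM was 0.956 to 0.961 between TNFRSF10B and ABHD18, SDC1 and EMX2, and 0.952 to 0.953 between TNFRSF10D and UNC93B1, TIGD5 and ALMS1. TNFRSF1A was most like BANF1, HK1 and ST20-MTHFS (0.948 to 0.963), FADD most like GMPPB, JOSD2 and PUSL1 (0.968 to 0.985), and CASP8 most like ITSN1, ZNF611 and KLHL24 (0.934 to 0.950). Each is the top of 11020 genes over only 8 libraries that share groups and depth, so these values are no test. None of these genes was among the 41 of the pathway.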

How the data were processed

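The authors filtered reads with fastp 0.24.0, aligned them with STAR 2.7.11 to GRCh38, removed duplicates by molecular identifier and assigned reads to exons and 3′ UTRs by strand with featureCounts of Subread 2.1.1, splitting multi-mapping reads into fractions. What they deposited are therefore expected counts, which were rounded here. The 9 deposited columns of CPM were not used. Totals are given in the report, and intervals and floors (3 counts) cover counting error only. The study leaves out 1 WT replicate of low reads, and a depth rule did so here. Genes kept by filterByExpr were scaled with TMM and tested in edgeR 4.0.16 (R 4.3.3) by quasi-likelihood, and p-values were adjusted by the Benjamini-Hochberg method over all genes tested. DESeq2 1.42.0 was an alternative. Files were read with the data.table package (version 1.17.8), and sequences and plots used Python 3.11.15, numpy 2.4.6 and matplotlib 3.10.9. The fit was tested on simulated data. Genes were mapped by symbol, groups by sample titles. The genes and lists were chosen with earlier results of these data known: all 8 genes, and of the 41 others those past the threshold, the most abundant of each list, and the 3 genes most alike to each of the 8 with at least 5 CPM. TRADD, RBCK1, ACTA2 and the genes at 0 were named after their values were seen. Of the plan, 1 result is not reported here.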

Additional observations from a re-analysis of the deposited data

How the results depend on the processing

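In G245S, the count of these genes called lower was 1 (EDA2R). It was 2 without a filter on low counts, with the replicate block and with the likelihood ratio test, each time with FAS added, and 0 with WT replicates 1 and 3. It was also 0 with a minimum mean of 5 CPM, which removes both genes, and it ranged from 0 to 1 when each replicate was left out. In R273H the count was 1 (FAS). It was 2, with EDA2R added, without a filter, with the replicate block, with the likelihood ratio test and with protein-coding genes only. For the replicate block, the likelihood ratio test and protein-coding genes only, the share of all genes called is not given here. A higher count in either mutant under such a setting is therefore no added support. It was 0 with all 3 WT libraries, with WT replicates 1 and 3 or 2 and 3, with DESeq2 and with a minimum mean of 5 CPM, and ranged from 0 to 1 when each replicate was left out. The count between the mutants was 0 under every alternative run. Where a WT replicate of the 2 fitted was left out, the lone WT library was assumed to vary like the others. The settings that use WT replicate 3 bring in a library that differed in keratin levels as well as in depth. Whether the replicate numbers pair the libraries was not settled. Correlations of same-numbered deviations from the group mean were −0.109 and −0.219 between WT and G245S and −0.248 and −0.0759 between WT and R273H. The deviations of 2 WT libraries mirror each other, so these values cannot show pairing. Between G245S and R273H same-numbered correlations were 0.255, 0.359 and 0.0156, and differently numbered ones ran from −0.323 to 0.139. Centring ties these values to each other too, so they do not decide it. The log2 fold changes of FAS and EDA2R were negative in both mutants under every alternative that tested them. Signs turned only for values near 0, none of them called. With the replicate block, CASP8 was −0.0232 in G245S and TNFRSF1A −0.0070 in R273H. FADD in R273H was 0.0199 with all 3 WT libraries, 0.0518 with WT replicates 1 and 3, 0.0477 with WT replicates 2 and 3 and 0.0076 with library size alone, and TNFRSF1A between the mutants was 0.00091 with library size alone. With each replicate left out in turn, the log2 fold change in G245S ranged from −0.0123 to 0.149 for TNFRSF1A and from −0.0251 to 0.0686 for CASP8, in R273H from −0.0341 to 0.122 for TNFRSF1A and from −0.0470 to 0.0070 for FADD, and between the mutants from −0.185 to 0.0957 for TNFRSF10D and from −0.0708 to 0.0285 for TNFRSF1A. The causes were not tested. Without the filter edgeR called 144 of 35067 genes in G245S, 93 of 35173 in R273H and 125 of 36147 between the mutants. With it, the calls in either direction were 20 of 15893, 22 of 16022 and 0 of 15614. Among the genes called without the filter were 2 collagen markers in R273H and 3 between the mutants. The depth limits EDA2R and TNFRSF10A most, since a few counts decide their values.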
